A study of Brassica napus with 12 samples.

Results

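In root tips of *Brassica napus*, 127 of 101038 genes were raised by growth at 29 °C, relative to 21 °C, in both spring oilseed rape varieties studied, Drakkar and Duplo, under a rule that left a gap between the temperatures. Reads were expressed as CPM, the count of a gene as a share of all reads counted on genes in the same library, in parts of 1000000. A gene was taken when, in each variety separately, its lowest library at 29 °C held at least 1 CPM and at least 1.5 times the CPM of its highest library at 21 °C. The limits were met by 129 genes, and 7 genes, of which 2 met them, were left out by name. The limits were met by 0.128% of all genes and by 0.269% of the 47867 genes with at least 1 CPM in at least 3 libraries. Since the temperature values themselves chose the 127 genes, their rise at 29 °C is described here and carries no test, and a gene is said to have risen when it met these limits. The mirrored limits, with the lowest library at 21 °C above the highest at 29 °C, were met by 56 genes.

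Seedlings of each variety were germinated on agar, moved to paper pouches that drew up nutrient solution, and kept for 7 days at a constant 21 °C, the optimal temperature of the study, or at a constant 29 °C, its warm temperature. All 4 groups shared the medium, the light regime and the humidity, and the labels name no agent or transgene in any of them. Each group had 3 libraries made from poly(A) RNA, and each library pooled the root tips of several seedlings grown in several pouches. The sources give different lengths for the dissected tip, so the zones of the root that it held are not known exactly.

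Plants have no single organ that senses warmth, and warm growth temperatures change hormone signalling, water transport, sugar supply and the processing of messenger RNA. Plants measure oxygen through cysteine oxidases that mark ethylene response factors of one subfamily for destruction as long as oxygen is present. *B. napus* is an allotetraploid that carries an A and a C subgenome, so most genes have near-identical copies between which the division of reads is uncertain, and this holds for every gene named here.

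Depth ranged from 26554987 to 39934384 reads counted on genes per library, so that the lowest level of any of the 127 genes in a library at 29 °C rested on 28 reads. In a principal component analysis of all 12 libraries the first component, with 60.3% of the variance, separated the varieties. On the second component, with 14.7%, Duplo 29 °C replicate 3 stood apart at -152 from the other Duplo libraries at 29 °C (33.4 and 14.5), and below the Drakkar libraries at 29 °C (-95.0 to -36.6). Results that rest on this library are therefore given with and without it. On the second component the Duplo libraries at 21 °C lay at 50.2, 13.7 and 33.8. The other Duplo libraries at 29 °C lay within that range, so this component did not separate them from those at 21 °C. RNA was taken from whole tips, so fewer cells of a type and less RNA per cell cannot be told apart in any value below. None of the markers set for root meristem, root cap and root hair could be looked up. The tables used here to pair *B. napus* genes with Arabidopsis loci do not name them, and the tissue label was therefore not checked on them. Of 8 green tissue markers 2 could be looked up, and their summed level was 1.58 to 1.70 CPM in Drakkar at 21 °C, 3.97 to 7.43 CPM in Drakkar at 29 °C, 1.34 to 1.72 CPM in Duplo at 21 °C and 2.22 to 6.71 CPM in Duplo at 29 °C. Of 6 markers of endodermis and vasculature 3 could be looked up, and their summed level was 11.1 to 11.4 CPM in Drakkar at 21 °C, 9.20 to 15.1 CPM in Drakkar at 29 °C, 5.19 to 7.63 CPM in Duplo at 21 °C and 8.59 to 15.5 CPM in Duplo at 29 °C. The part of either in the rise of the 127 genes was not tested.

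Quantitative PCR primers had been designed by the study for 2 of the 127 genes, and they are shown with the genes to which the study assigned them. Both loci have other annotated copies, and whether the primers tell the copies apart was not tested. The first pair belongs to *BnSCL33* (BnaA06g00410D, chromosome A06), which encodes a serine/arginine-rich splicing factor, and the second to *BnSUC7* (BnaC06g32880D, chromosome C06), which encodes a sucrose-proton symporter. Each primer is written 5′ to 3′.
BnSCL33 forward: gtcgcagtgtaagtccagcc
BnSCL33 reverse: aatgcctcctcctcttggact
BnSUC7 forward: taaccccggtgaggagaaca
BnSUC7 reverse: gagccgtgacgatcaaaagc
The PCR measurements themselves were not analysed here.

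The typical rise was near a factor of 3. The ratio of the mean CPM at 29 °C to that at 21 °C had a median of 2.91 in Drakkar (range 1.62 to 486) and of 2.73 in Duplo (range 1.71 to 53.1), which became 2.34 without Duplo 29 °C replicate 3 and 2.83 without Duplo 21 °C replicate 2. Both varieties showed at least a doubling of the mean for 99 genes, at least a tripling for 39 and at least a 5-fold rise for 14. Together the 127 genes took 669.6, 663 and 732 CPM in the Drakkar libraries at 21 °C, against 2180, 1670 and 2206 CPM in those at 29 °C, with replicates in the order 1, 2 and 3 here and below. In Duplo they took 547, 666 and 609.5 CPM at 21 °C, against 1596, 1492 and 2029 CPM in the warm libraries. Within each variety the libraries at 29 °C thus all lay above those at 21 °C, which the rule requires gene by gene. Drakkar 29 °C replicate 2 was the lowest of the Drakkar libraries at 29 °C for 85 genes, and Duplo 29 °C replicate 3 was the highest of the Duplo libraries at 29 °C for 85 genes. Duplo 29 °C replicate 3 was more than 2 times the mean of the other Duplo libraries at 29 °C for 14 genes and below it for 33. At the same time the median of the 47867 expressed genes moved little, from -0.03 to 0.10 in every library on the log2 scale after adding 0.5 CPM.

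**Figure D1:**
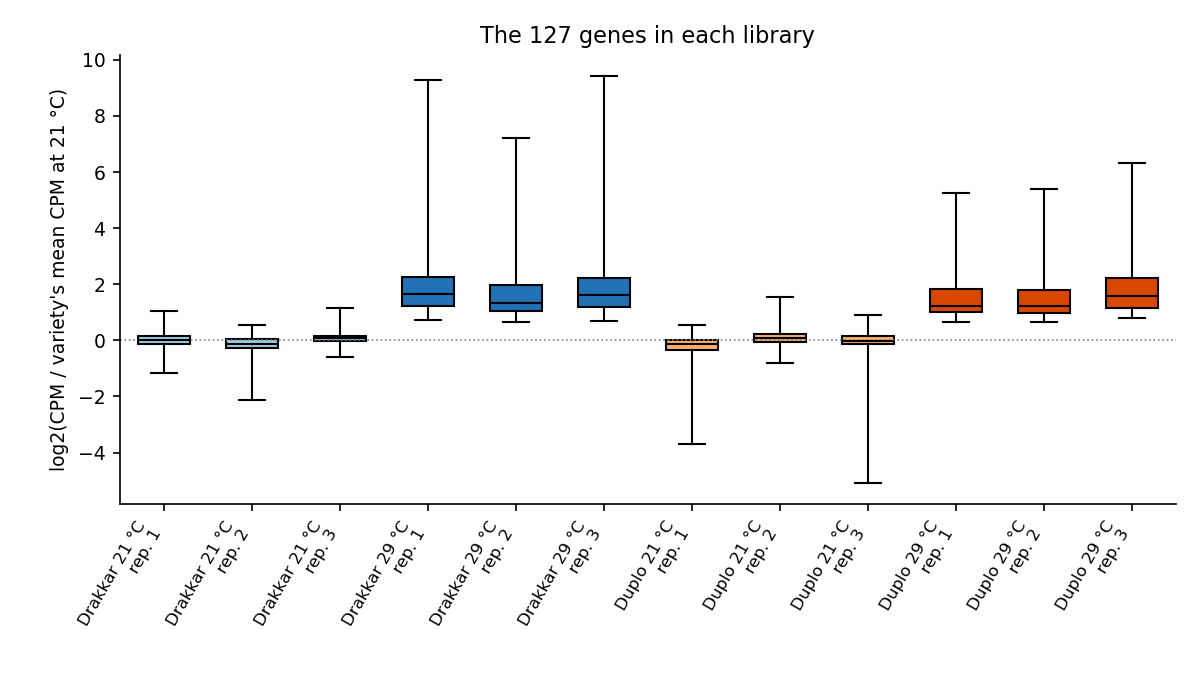
Level of the 127 genes in each library as log2 of CPM over the variety's own mean CPM at 21 °C; boxes give the quartiles, the line in the box the median, and the whiskers reach the lowest and highest gene (1 gene with 0 reads in Duplo 21 °C replicate 1 is not drawn there). The medians at 29 °C lie at 1.67, 1.33 and 1.60 in Drakkar and at 1.24, 1.21 and 1.57 in Duplo, and the genes were chosen for this difference.

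The rule drew a line through a continuum. Just inside the limit stood BnaAnng13200D, BnaA01g25730D and BnaC03g57350D, whose smaller ratio of lowest library at 29 °C to highest at 21 °C was 1.502, 1.512 and 1.512. Just outside stood BnaA02g22810D, BnaC03g51740D and BnaC03g27600D, at 1.499, 1.499 and 1.498. Without any gap, 4182 expressed genes (8.74%) had all libraries at 29 °C above all at 21 °C in both varieties. The choice of scaling mattered at this edge. When library sizes were scaled by TMM factors, the limits were met by 87 of the 127 genes and by no other gene that was not left out by name. This composition-adjusted scale lowered CPM at 29 °C relative to 21 °C in both varieties. Its factors were 0.957 to 0.992 at 21 °C and 1.04 to 1.07 at 29 °C in Drakkar, and 0.956 to 0.984 and 0.992 to 1.01 in Duplo.

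The genes with the widest gap between temperatures were headed by both copies of *BnDRG1*, a gene for a member of a conserved family of GTP-binding proteins. The copy on C06 (BnaC06g33810D) was at 0.284, 0.125 and 0.417 CPM in Drakkar at 21 °C and reached 29.9, 14.4 and 26.8 CPM at 29 °C, and in Duplo it went from 0.0296, 0.496 and 0.167 to 8.77, 9.64 and 18.4 CPM. The copy on A07 (BnaA07g30360D) was at 0.284, 0.300 and 0.268 CPM in Drakkar at 21 °C and reached 25.99, 11.4 and 24.2 CPM at 29 °C, and in Duplo it went from 0.148, 0.463 and 0.0334 to 7.602, 8.51 and 13.1 CPM. The pair was thus close to absent at 21 °C and measurable in every library at 29 °C, having risen by 86.1-fold in Drakkar and 53.1-fold in Duplo for the C06 copy and by 72.2-fold in Drakkar and 45.4-fold in Duplo for the A07 copy. In both copies Drakkar 29 °C replicate 2 was the lowest Drakkar library at 29 °C and Duplo 29 °C replicate 3 the highest Duplo library. Without the latter the Duplo folds were 39.9 and 37.5. Duplo 21 °C replicate 2 was the highest Duplo library at 21 °C in each copy, and without it the Duplo folds were 125 and 107. BnaA01g13180D, annotated as a phosphatidylinositol 4-kinase gamma-like gene, was at 0.284, 0.100 and 0.447 CPM in Drakkar at 21 °C and reached 8.18, 4.14 and 8.77 CPM at 29 °C, and in Duplo it went from 0, 0.0991 and 0.0668 to 1.48, 1.69 and 2.06 CPM. Its Duplo libraries at 21 °C each held 3 reads or fewer, so that it was at least 18.2-fold higher at 29 °C in Duplo against a floor of 3 reads per library, beside 25.4-fold in Drakkar.

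Other wide gaps belonged to genes of unlike function. *BnFTSHI1* (BnaC03g46120D), for an FtsH-like protein of the chloroplast envelope, was at 0.227, 0.225 and 0.209 CPM in Drakkar at 21 °C and reached 2.03, 1.71 and 2.20 CPM at 29 °C, and in Duplo it went from 0.356, 0.264 and 0.334 to 1.86, 1.21 and 1.81 CPM. *BnUPS5* (BnaC05g20350D), for a ureide permease, was at 0.114, 0.300 and 0.268 CPM in Drakkar at 21 °C and reached 1.96, 1.11 and 1.79 CPM at 29 °C, and in Duplo it went from 0.445, 0.397 and 0.467 to 1.48, 3.20 and 1.42 CPM. *BnBZIP69* (BnaC08g01660D), for a basic leucine zipper transcription factor, was at 0.284, 0.175 and 0.268 CPM in Drakkar at 21 °C and reached 1.90, 1.71 and 1.90 CPM at 29 °C, and in Duplo it went from 0.178, 0.264 and 0.267 to 1.29, 1.62 and 2.56 CPM. These 3 genes were low at 21 °C and stayed at a few CPM at 29 °C, and their means rose by 8.98-fold in Drakkar and 5.11-fold in Duplo, by 7.14-fold in Drakkar and 4.66-fold in Duplo and by 7.57-fold in Drakkar and 7.71-fold in Duplo, in that order. BnaC05g36410D, annotated in the adenine nucleotide alpha hydrolase-like superfamily, was at 0.908, 0.376 and 0.626 CPM in Drakkar at 21 °C and reached 8.31, 7.90 and 9.52 CPM at 29 °C, and in Duplo it went from 0.652, 0.529 and 0.801 to 2.52, 2.64 and 5.29 CPM. Its levels at 21 °C overlapped between the varieties and at 29 °C were higher in every Drakkar library, with folds of 13.5 and 5.27 (3.90 without Duplo 29 °C replicate 3).

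Of 46 annotated genes of the heat shock and chaperone list, 1 was among the 127, and 28 (60.9%) met the limits in Drakkar only. The limits were met in Drakkar only by 1.33% of all genes and by 38.7% of the 2273 genes annotated with an Arabidopsis locus, in Duplo only by 0.314% and 3.52%, and in both varieties by 4.71% of the annotated genes. The annotation comes from the study's own tables of genes that changed with temperature, so such counts cover genes picked on these libraries and are no independent evidence. It was read from some of the study's gene clusters and from its Drakkar comparison, and from no Duplo comparison. The annotated genes can therefore lean towards those that changed in Drakkar. The single gene of the heat shock list among the 127 was *BnP23-1* (BnaC05g17990D), which encodes a co-chaperone of HSP90. This gene was at 0.0568, 0.0250 and 0.238 CPM in Drakkar at 21 °C and reached 65.9, 15.6998 and 74.1 CPM at 29 °C, and in Duplo it went from 0.0889, 3.30 and 0.0334 to 9.90, 11.9 and 13.4 CPM. It had the largest Drakkar fold of the 127 genes, 486, and a Duplo fold of 10.3, and without Drakkar 21 °C replicate 3 the Drakkar fold was 1268. Duplo 21 °C replicate 2 lay far above the other Duplo libraries at 21 °C, and without it the Duplo fold was 192. The A09 copy of *BnP23-1* (BnaA09g30420D) was at 0.255, 0.0250 and 0.0596 CPM in Drakkar at 21 °C and reached 104, 7.14 and 105 CPM at 29 °C, and in Duplo it went from 0.148, 12.99 and 0 to 1.42, 3.88 and 7.10 CPM. That copy failed the limits because Duplo 21 °C replicate 2 was again high, above every Duplo library at 29 °C. The counts of genes that met the limits in Drakkar only, here and below, were not repeated without that library. How many of them rest on it is therefore not known. Among the 127 genes, Duplo 21 °C replicate 2 was the highest Duplo library at 21 °C for 62 and exceeded 2 times the mean of the other 21 °C Duplo libraries for 11. *BnFBA6* (BnaAnng31970D), for a fructose-bisphosphate aldolase of glycolysis, was at 0.114, 0.0250 and 0.0894 CPM in Drakkar at 21 °C and reached 6.81, 1.253 and 8.88 CPM at 29 °C, and in Duplo it went from 0.0593, 0.231 and 0.167 to 1.39, 1.996 and 4.94 CPM. Its folds were 74.3 and 18.2 (11.1 without Duplo 29 °C replicate 3), and the varieties overlapped at both temperatures. BnaA03g33270D, which is annotated with a chaperone DnaJ domain and stood outside the heat shock list, was at 40.8, 35.8 and 45.5 CPM in Drakkar at 21 °C and reached 142, 97.3 and 131 CPM at 29 °C, and in Duplo it went from 27.7, 43.5 and 27.05 to 90.2, 85.0 and 125 CPM. It rose about 3-fold in both, by 3.03-fold in Drakkar and 3.06-fold in Duplo.

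A few genes of the response to low oxygen and of ethylene were among the 127. In Drakkar only, the limits were met by 50% and 42.9% of the annotated genes of these lists, beside 38.7% of all annotated genes. Nothing is read from these shares of short lists. Of 8 annotated genes of the low-oxygen and fermentation list, 3 were among the 127, 4 met the limits in Drakkar only and 1 in neither. *BnERF73* encodes an ethylene response factor of the subfamily through which Arabidopsis responds to low oxygen, and both an A and a C copy were present. The A07 copy (BnaA07g23090D) was at 1.82, 2.30 and 3.61 CPM in Drakkar at 21 °C and reached 11.4, 9.22 and 12.9 CPM at 29 °C, and in Duplo it went from 6.11, 8.19 and 9.92 to 50.4, 22.1 and 41.0 CPM. The C06 copy (BnaC06g24360D) was at 6.05, 5.63 and 6.53 CPM in Drakkar at 21 °C and reached 25.3, 19.1 and 17.1 CPM at 29 °C, and in Duplo it went from 5.13, 5.39 and 8.61 to 34.04, 18.6 and 30.2 CPM. The folds were 4.34-fold in Drakkar and 4.69-fold in Duplo for the A07 copy and 3.38-fold in Drakkar and 4.33-fold in Duplo for the C06 copy, whereas the levels of the A07 copy were higher in every Duplo library than in every Drakkar library of the same temperature and those of the C06 copy overlapped. *BnPCO1* (BnaC05g20060D), for a cysteine oxidase of the kind that senses oxygen in Arabidopsis, was at 0.965, 3.06 and 2.41 CPM in Drakkar at 21 °C and reached 15.5, 16.5 and 8.29 CPM at 29 °C, and in Duplo it went from 2.25, 4.99 and 5.01 to 35.7, 20.2 and 43.4 CPM. Its means rose by 6.26-fold in Drakkar and 8.11-fold in Duplo, and at 29 °C each Duplo library exceeded each Drakkar library. *BnACO1* (BnaCnng67880D), for an enzyme similar to the oxidase that makes ethylene from its precursor, was at 1.48, 2.40 and 3.07 CPM in Drakkar at 21 °C and reached 10.8, 19.2 and 5.30 CPM at 29 °C, and in Duplo it went from 5.60, 6.71 and 19.9 to 112, 42.9 and 119 CPM. The means rose by 5.08-fold in Drakkar and 8.47-fold in Duplo, and the replicates were widely spread, so that Duplo 21 °C replicate 3 exceeded every Drakkar library at 29 °C, and without it the Duplo fold was 14.8. Of 14 annotated genes of the ethylene list this was the only one among the 127, 1 further gene had been left out by name, and 6 met the limits in Drakkar only, 1 in Duplo only and 5 in neither. The *BnACO1* copy BnaA09g44060D was at 37.2, 47.6 and 31.5 CPM in Drakkar and 44.6, 30.7 and 78.2 CPM in Duplo at 29 °C. The copy BnaC08g36640D was at 43.1, 53.3 and 31.4 CPM in Drakkar and 52.6, 34.8 and 62.1 CPM in Duplo at 29 °C. For both, the varieties overlapped at 29 °C, while at 21 °C BnaA09g44060D was higher in every Duplo library. The copy left out by name is not described.

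**Figure D2:**
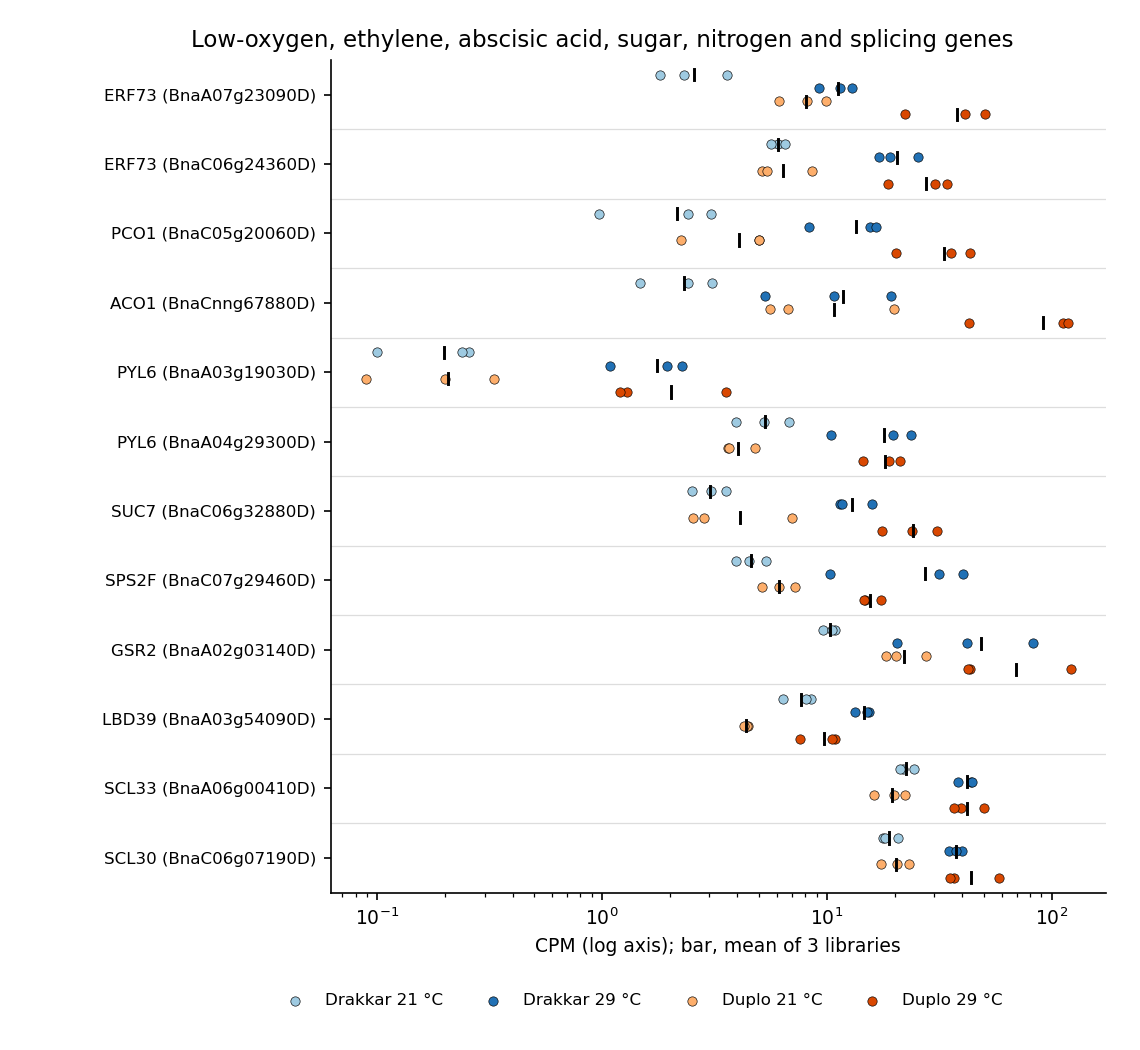
CPM of 12 of the 127 genes in each of the 12 libraries, on a log axis; points are libraries, coloured by variety and temperature, and black bars are means of 3 libraries. Within each variety every 29 °C point lies to the right of every 21 °C point, as the rule requires, and for *BnERF73* on A07 and *BnACO1* the Duplo points lie to the right of the Drakkar points of the same temperature.

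Both genes of the abscisic acid list among the 127, of 8 annotated, were copies of *BnPYL6*, for an abscisic acid receptor of the PYR/PYL family. The A04 copy (BnaA04g29300D) was at 5.22, 3.96 and 6.79 CPM in Drakkar at 21 °C and reached 19.7, 10.5 and 23.7 CPM at 29 °C, and in Duplo it went from 3.62, 3.67 and 4.77 to 18.9, 14.5 and 21.2 CPM. The A03 copy (BnaA03g19030D) was at 0.255, 0.100 and 0.238 CPM in Drakkar at 21 °C and reached 2.26, 1.08 and 1.94 CPM at 29 °C, and in Duplo it went from 0.0889, 0.330 and 0.200 to 1.29, 1.21 and 3.55 CPM. The varieties overlapped at both temperatures in each copy, and the folds were 3.38-fold in Drakkar and 4.53-fold in Duplo for the A04 copy and 8.89-fold in Drakkar and 9.76-fold in Duplo for the A03 copy (6.05 in Duplo without 29 °C replicate 3, which was the highest library there). *BnPYL6* was the only locus with more than 1 of its copies among the 127 on a single subgenome.

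Of 20 annotated genes of the glucosinolate and immunity list, 2 were among the 127. *BnFMO GS-OX2* (BnaC09g13360D), for a glucosinolate S-oxygenase, was at 3.15, 2.85 and 3.28 CPM in Drakkar at 21 °C and reached 11.2, 11.3 and 10.2 CPM at 29 °C, and in Duplo it went from 4.001, 3.14 and 2.94 to 12.9, 13.2 and 9.98 CPM. *BnRLP23* (BnaAnng28770D), for a receptor-like protein that detects a microbial peptide in Arabidopsis, was at 0.483, 0.601 and 0.805 CPM in Drakkar at 21 °C and reached 3.76, 1.95 and 3.02 CPM at 29 °C, and in Duplo it went from 0.356, 0.297 and 0.434 to 1.55, 1.054 and 1.10 CPM. The first rose by 3.52-fold in Drakkar and 3.58-fold in Duplo with overlap between varieties, and the second by 4.63-fold in Drakkar and 3.40-fold in Duplo with every Drakkar library above every Duplo library of its temperature. *BnGGCT2;2*, for a gamma-glutamyl cyclotransferase that degrades glutathione, was present with both copies. Its C01 copy (BnaC01g07220D) was at 32.8, 54.1 and 45.1 CPM in Drakkar at 21 °C and reached 124, 105 and 106 CPM at 29 °C, and in Duplo it went from 28.9, 39.7 and 33.1 to 94.5, 60.4 and 142 CPM. Its A01 copy (BnaA01g05960D) was at 24.2, 37.6 and 36.2 CPM in Drakkar at 21 °C and reached 99.7, 80.0 and 102 CPM at 29 °C, and in Duplo it went from 23.8, 28.9 and 31.3 to 83.2, 49.9 and 109 CPM. The rises were 2.54-fold in Drakkar and 2.93-fold in Duplo for the C01 copy and 2.87-fold in Drakkar and 2.88-fold in Duplo for the A01 copy, and in both copies Duplo 29 °C replicate 2 was the lowest of the Duplo libraries at 29 °C. *BnBIA*, annotated from Arabidopsis as a secreted peptide that enhances cell death under stress, was likewise present with both copies. The C copy (BnaCnng69590D) was at 64.5, 49.8 and 65.7 CPM in Drakkar at 21 °C and reached 139, 126 and 151 CPM at 29 °C, and in Duplo it went from 59.3, 64.2 and 54.4 to 113, 125 and 136 CPM. The A01 copy (BnaA01g23310D) was at 60.9, 37.9 and 59.5 CPM in Drakkar at 21 °C and reached 156, 131 and 181 CPM at 29 °C, and in Duplo it went from 33.8, 35.2 and 30.4 to 60.9, 72.4 and 75.9 CPM. These took the most reads of the 127 genes at 29 °C, rose by 2.30-fold in Drakkar and 2.11-fold in Duplo and by 2.95-fold in Drakkar and 2.11-fold in Duplo, and the varieties overlapped for the C copy while Drakkar was higher throughout for the A01 copy.

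Sugar and nitrogen metabolism were represented by 4 genes. Of 28 annotated genes of the sugar list, 2 were among the 127, and of 27 of the nitrogen list, 2. *BnSUC7*, the sucrose-proton symporter whose primers are given above, was at 3.55, 2.50 and 3.04 CPM in Drakkar at 21 °C and reached 11.5, 15.8 and 11.6 CPM at 29 °C, and in Duplo it went from 2.55, 6.97 and 2.84 to 17.63, 24.0 and 30.7 CPM. Its means rose by 4.28-fold in Drakkar and 5.85-fold in Duplo (8.95 without Duplo 21 °C replicate 2, which was the highest library at 21 °C), and at 29 °C all Duplo libraries exceeded all Drakkar libraries. *BnSPS2F* (BnaC07g29460D), for a sucrose-phosphate synthase, was at 3.95, 4.48 and 5.36 CPM in Drakkar at 21 °C and reached 31.4, 10.3 and 40.2 CPM at 29 °C, and in Duplo it went from 5.13, 7.204 and 6.11 to 14.7, 14.7 and 17.4 CPM. It rose by 5.94-fold in Drakkar and 2.54-fold in Duplo, and Drakkar 29 °C replicate 2 was the lowest library at 29 °C. *BnGSR2* (BnaA02g03140D), for a cytosolic glutamine synthetase, was at 10.9, 9.59 and 10.6 CPM in Drakkar at 21 °C and reached 82.8, 20.4 and 42.2 CPM at 29 °C, and in Duplo it went from 18.3, 20.2 and 27.6 to 43.5, 121 and 42.3 CPM. Single libraries set its means, with Drakkar replicate 1 and Duplo replicate 2 the highest at 29 °C, and the folds were 4.68 in Drakkar (3.02 without that replicate) and 3.13 in Duplo (1.95 without that replicate). *BnLBD39* (BnaA03g54090D), for a LOB domain protein that represses nitrate-responsive genes in Arabidopsis, was at 8.46, 6.36 and 8.11 CPM in Drakkar at 21 °C and reached 13.4, 15.4 and 15.1 CPM at 29 °C, and in Duplo it went from 4.45, 4.39 and 4.27 to 10.9, 7.61 and 10.5 CPM. Replicates were close, Drakkar was higher at each temperature, and the folds were 1.91 and 2.22.

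Water channels were among the genes with the most reads. *BnPIP1C* (BnaA04g00710D), for an aquaporin of the plasma membrane, was at 37.9, 60.4 and 45.8 CPM in Drakkar at 21 °C and reached 132, 92.98 and 177 CPM at 29 °C, and in Duplo it went from 4.77, 9.22 and 9.05 to 17.9, 14.1 and 19.1 CPM. *BnTIP2* (BnaC07g23630D), for an aquaporin of the vacuolar membrane, was at 24.8, 32.7 and 27.8 CPM in Drakkar at 21 °C and reached 67.2, 53.2 and 81.1 CPM at 29 °C, and in Duplo it went from 18.6, 16.6 and 21.1 to 49.8, 35.1 and 36.9 CPM. Drakkar was higher than Duplo in every library of the same temperature for both, and the folds were 2.79-fold in Drakkar and 2.22-fold in Duplo for *BnPIP1C* and 2.36-fold in Drakkar and 2.16-fold in Duplo for *BnTIP2*. The remaining gene of at least 50 CPM at 29 °C that has not been described was *BnEXL2* (BnaA02g34120D), of the EXORDIUM-like family. *BnEXL2* was at 45.2, 44.6 and 51.4 CPM in Drakkar at 21 °C and reached 116, 84.3 and 133 CPM at 29 °C, and in Duplo it went from 24.3, 39.2 and 32.5 to 63.2, 64.3 and 134 CPM. It rose by 2.36-fold in Drakkar and 2.72-fold in Duplo, and by 1.99-fold in Duplo without 29 °C replicate 3.

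Of the 11 annotated genes of the list for pre-mRNA splicing and RNA binding, 2 were among the 127, 1 was left out by name, and both of the 2 encode serine/arginine-rich splicing factors. *BnSCL33*, whose primers are given above, was at 21.8, 21.1 and 24.5 CPM in Drakkar at 21 °C and reached 43.9, 44.3 and 38.3 CPM at 29 °C, and in Duplo it went from 16.1, 22.3 and 19.97 to 39.3, 36.9 and 49.97 CPM. *BnSCL30* (BnaC06g07190D) was at 17.8, 18.1 and 20.7 CPM in Drakkar at 21 °C and reached 39.7, 35.1 and 37.4 CPM at 29 °C, and in Duplo it went from 17.4, 23.2 and 20.5 to 36.8, 35.2 and 58.5 CPM. Both genes rose, by 1.88-fold in Drakkar and 2.16-fold in Duplo and by 1.98-fold in Drakkar and 2.14-fold in Duplo, and the varieties overlapped at each temperature. Without Duplo 29 °C replicate 3, the highest library of each, the Duplo folds were 1.96 and 1.77. Other genes of RNA and the nucleolus, singled out after their values were seen, were the nucleolin-like *BnNUC-L2* (BnaC05g34550D), by 5.43-fold in Drakkar and 3.04-fold in Duplo, and the La-related *BnLARP6A* (BnaA06g36080D), by 2.76-fold in Drakkar and 2.71-fold in Duplo (1.80 in Duplo without 29 °C replicate 3).

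Some genes for proteins of chromosomes and the spindle belonged to no list and were grouped after their values were seen, and of these only the C06 copy of *BnASY1* and *BnTTN8* fell under the rule for naming genes. *BnASY1*, for a protein of the meiotic chromosome axis, was present with both copies. The C06 copy (BnaC06g28450D) was at 0.539, 0.676 and 0.536 CPM in Drakkar at 21 °C and reached 3.60, 2.05 and 3.47 CPM at 29 °C, and in Duplo it went from 0.504, 0.562 and 0.467 to 2.21, 2.67 and 3.02 CPM. The A07 copy (BnaA07g26350D) was at 0.625, 0.876 and 0.864 CPM in Drakkar at 21 °C and reached 3.14, 3.62 and 4.67 CPM at 29 °C, and in Duplo it went from 1.04, 0.826 and 1.07 to 2.30, 2.15 and 2.91 CPM. The folds were 5.21-fold in Drakkar and 5.15-fold in Duplo for the C06 copy and 4.83-fold in Drakkar and 2.51-fold in Duplo for the A07 copy, with all 6 libraries at 29 °C above all 6 at 21 °C in each. *BnDMC1* (BnaA01g24420D), for a recombinase of meiosis, was at 0.397, 0.476 and 0.566 CPM in Drakkar at 21 °C and reached 2.03, 2.61 and 1.98 CPM at 29 °C, and in Duplo it went from 0.326, 0.727 and 0.634 to 1.96, 2.56 and 1.49 CPM. It rose by 4.598-fold in Drakkar and 3.56-fold in Duplo. *BnPS1* (BnaA07g05890D), required for spindle orientation in male meiosis of Arabidopsis, rose by 2.52-fold in Drakkar and 1.92-fold in Duplo, and *BnTRB1* (BnaA08g29620D), which binds telomeric DNA, by 3.26-fold in Drakkar and 2.79-fold in Duplo. *BnTTN8* (BnaC03g43960D), for a subunit of the cohesin complex that holds sister chromatids together, was at 0.114, 0.100 and 0.209 CPM in Drakkar at 21 °C and reached 1.31, 1.01 and 1.19 CPM at 29 °C, and in Duplo it went from 1.30, 1.29 and 0.801 to 3.12, 3.39 and 2.59 CPM. For it the Duplo libraries at 21 °C reached the level of the Drakkar libraries at 29 °C, and the folds were 8.32 and 2.68.

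The cell wall list held 2 of the 127 genes among its 24 annotated ones, both copies of *BnPMEI9*, for an inhibitor of pectin methylesterase. The C09 copy (BnaC09g13080D) was at 3.04, 2.60 and 3.01 CPM in Drakkar at 21 °C and reached 11.5, 10.8 and 20.8 CPM at 29 °C, and in Duplo it went from 3.91, 3.60 and 4.14 to 10.4, 7.19 and 18.04 CPM. The A09 copy (BnaA09g12730D) was at 8.57, 6.71 and 6.56 CPM in Drakkar at 21 °C and reached 18.2, 14.2 and 23.0 CPM at 29 °C, and in Duplo it went from 7.56, 8.86 and 7.48 to 14.1, 14.2 and 16.2 CPM. The C09 copy rose by 4.98-fold in Drakkar and 3.06-fold in Duplo (2.26 in Duplo without 29 °C replicate 3) and the A09 copy by 2.54-fold in Drakkar and 1.86-fold in Duplo. The clock and light list gave 1 gene of 17 annotated, *BnELF4-L1* (BnaC03g26210D), a relative of an Arabidopsis clock gene. *BnELF4-L1* was at 0.483, 0.426 and 0.507 CPM in Drakkar at 21 °C and reached 4.68, 2.68 and 3.32 CPM at 29 °C, and in Duplo it went from 0.326, 0.628 and 0.601 to 1.07, 1.62 and 1.78 CPM. Levels overlapped at 21 °C and were higher in every Drakkar library at 29 °C, with folds of 7.55 and 2.87. In 4 further lists no annotated gene was among the 127, namely the lists for low energy and darkness (0 of 30), redox and detoxification (0 of 29), breakdown of amino acids and fatty acids and autophagy (0 of 18), and auxin, cytokinin, gibberellin and brassinosteroid (0 of 16). In Drakkar only, the limits were met by 17, 13, 10 and 9 of these genes, in the same order (56.7%, 44.8%, 55.6% and 56.3%). Of all annotated genes, 38.7% met the limits in Drakkar only and 4.71% in both varieties. With lists of this length, a count of 0 is not read as a result.

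Which variety showed the larger rise for more of the genes depended on the scaling of the libraries. On CPM, the larger fold of means was in Drakkar for 75 genes and in Duplo for 52, or for 91 and 36 without Duplo 29 °C replicate 3, and for 67 and 60 without Duplo 21 °C replicate 2. The fitted interaction, described next, was on the Drakkar side for 68 genes and on the Duplo side for 59 with TMM factors, 65 and 62 with DESeq2, 63 and 64 with RLE size factors, and 75 and 52 with library totals alone. With the gene at the floor set to its bound, the counts on CPM were 76 and 51, and the Duplo median was unchanged at 2.73. The folds lay within 1.5 times of each other for 92 genes, were more than 2 times larger in Drakkar for 14 and more than 2 times larger in Duplo for 5 (18 and 3 without Duplo 29 °C replicate 3, 12 and 7 without Duplo 21 °C replicate 2). Across the 127 genes, which are not independent and share libraries within each variety, the folds had a Spearman correlation of 0.60 and, on the log2 scale, a Pearson correlation of 0.75, as a description. The rule had set a lower limit on the rise in both varieties, so these values hold for the chosen genes only.

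**Figure D3:**
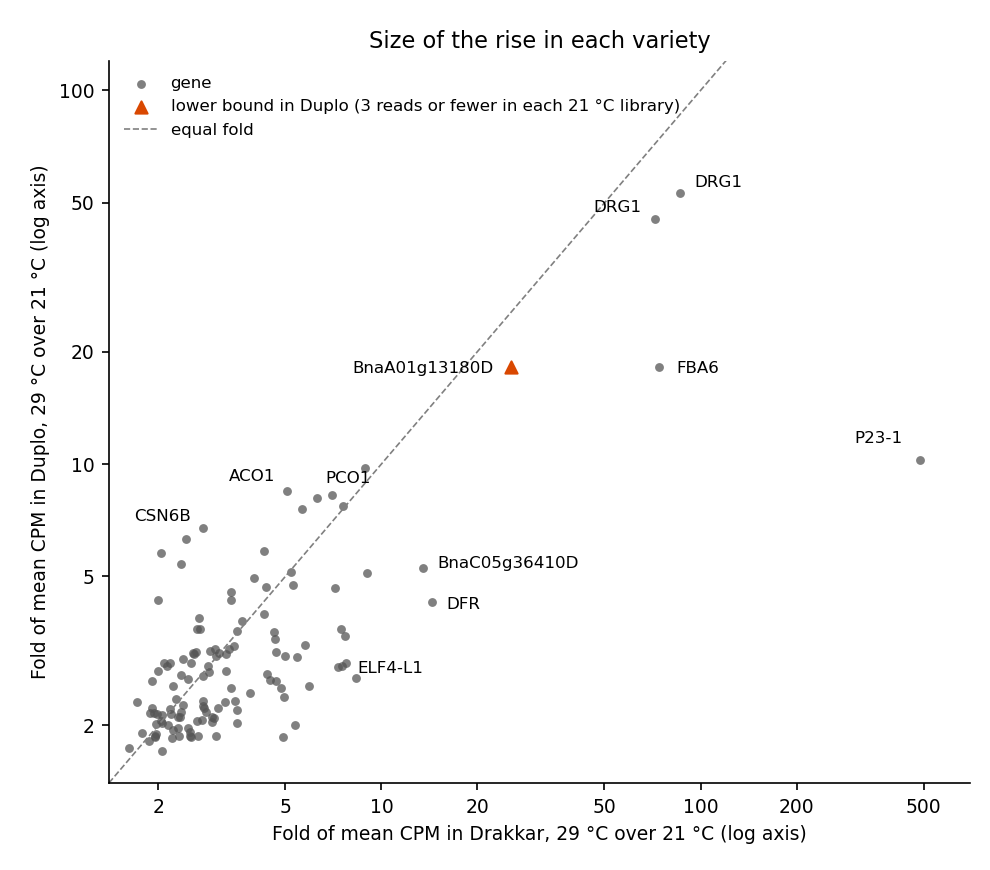
Ratio of mean CPM at 29 °C to mean CPM at 21 °C for the 127 genes in Drakkar (horizontal) and Duplo (vertical), both on log axes; each point is a gene, the dashed line marks equal folds, and the triangle marks a lower bound. *BnP23-1* lies far below the line at 486 and 10.3, and the copies of *BnDRG1* have the largest Duplo folds, 53.1 and 45.4; without Duplo 21 °C replicate 2 the Duplo folds are 192 for *BnP23-1* and 125 and 107 for *BnDRG1*.

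Whether the response differed between varieties was tested as the interaction of variety and temperature with edgeR's quasi-likelihood test over all 12 libraries, with a threshold of adjusted p under 0.05 and an absolute log2 difference over 1. The rule used both responses, so the interaction is not independent of how the genes were chosen. None of the 127 genes passed (0 of 127, against 0% of 55227 genes tested), and the lowest adjusted p among them was 0.499. An unadjusted p under 0.05 was found for 25 of the 127, against 3891 (7.05%) of all genes. Of the 25, 22 had the larger rise in Drakkar and 3 in Duplo (11 and 6 without Drakkar 21 °C replicate 2, 13 and 8 without Duplo 29 °C replicate 2). Nothing is read from this count or its direction. The rule favours genes whose replicates lie close together, which can make such p-values too small. DESeq2 called 135 genes (0.244%) and 0 of the 127. The fitted log2 difference of the responses, Duplo minus Drakkar, was largest on the Drakkar side for *BnP23-1* at -5.50 (standard error 1.71, edgeR adjusted p = 0.552), and it was -1.40 without Duplo 21 °C replicate 2. It was -1.94 (standard error 1.34, edgeR adjusted p = 0.855) for *BnFBA6*. *BnDFR* (BnaA09g15710D), for the dihydroflavonol reductase of anthocyanin synthesis, was at 0.426, 0.576 and 0.626 CPM in Drakkar at 21 °C and reached 9.33, 3.76 and 10.4 CPM at 29 °C, and in Duplo it went from 0.385, 0.264 and 0.735 to 1.89, 1.85 and 2.17 CPM. The varieties overlapped at 21 °C and Drakkar was higher at 29 °C, with an interaction of -1.69 (standard error 0.58, edgeR adjusted p = 0.584). On the Duplo side the 3 largest belonged to BnaA09g37800D and BnaC03g62300D, which carry no annotation, and to *BnCSN6B* (BnaA03g48020D), for a subunit of the COP9 signalosome. *BnCSN6B* was at 2.41, 2.03 and 2.50 CPM in Drakkar at 21 °C and reached 6.45, 7.38 and 5.34 CPM at 29 °C, and in Duplo it went from 0.356, 0.793 and 0.367 to 3.25, 3.16 and 3.84 CPM. Its levels were higher in Drakkar at both temperatures and rose more in Duplo, by 6.76-fold against 2.76-fold, with an interaction of 1.35 (standard error 0.37, edgeR adjusted p = 0.499). It was the 1 gene of the 127 past the threshold when Duplo 21 °C replicate 2 was left out. BnaC03g62300D was at 4.09, 3.26 and 4.32 CPM in Drakkar at 21 °C and reached 10.4, 10.4 and 7.61 CPM at 29 °C, and in Duplo it went from 0.593, 0.363 and 0.267 to 3.12, 2.11 and 2.49 CPM. The interaction was 1.41 (standard error 0.38, edgeR adjusted p = 0.499) for BnaC03g62300D and 1.56 (standard error 0.72, edgeR adjusted p = 0.718) for BnaA09g37800D, where Duplo 29 °C replicate 3 was the highest library and the Duplo fold without it was 3.03 in place of 5.77, with an interaction of 0.66.

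The temperature contrast of each variety, fitted on its own with edgeR, called 100 of the 127 genes in Drakkar, where 2.48% of 52709 genes were called higher at 29 °C, and 0 of the 127 in Duplo, where 0.00194% of 51673 were. Nothing is read from these counts, since the rule used the contrast. In Duplo all 127 had an unadjusted p under 0.05 (19.9% of all genes did), their adjusted p lay between 0.0765 and 0.211, DESeq2 called 94 (1.11% of all genes called higher), and edgeR called 46 without Duplo 29 °C replicate 3 (0.366%).

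The difference in level between the varieties was tested, since the rule compared temperatures within a variety. The contrast was the mean of the Duplo groups minus the mean of the Drakkar groups, on the log2 scale, in edgeR's fit of all 12 libraries with the same threshold. Of the 127 genes 18 passed (14.2%), 8 with the higher level in Duplo and 10 in Drakkar, beside 13.3% of the 55227 genes tested, of which 6.29% were higher in Duplo and 6.98% in Drakkar. The test is not free of the rule, which asked for at least 1 CPM in the libraries at 29 °C of both varieties and so took no gene nearly absent from one of them. Among the 39778 tested genes with at least 1 CPM in all 6 libraries at 29 °C, a set formed after the values were seen, 6.2% passed. The rule also favours genes whose replicates lie close together, which can make such p-values too small for the genes it takes, and the shares were not tested against each other. Among those higher in Duplo was the BnaCnng67880D copy of *BnACO1* (log2 difference of 2.62, standard error 0.43, adjusted p = 6.52e-04, edgeR), which does not stand for the other copies of that locus. So were the A07 copy of *BnERF73* (log2 difference of 1.75, standard error 0.23, adjusted p = 1.08e-04) and *BnPCO1* (log2 difference of 1.15, standard error 0.31, adjusted p = 0.0171), both by edgeR. Other copies of *BnERF73* differed from the A07 copy. BnaC06g24360D was not called (log2 difference of 0.29, standard error 0.18, adjusted p = 0.282, edgeR). The annotated copy BnaC06g33570D, outside the 127, was at 0 CPM in every Duplo library and at 1.70, 0.453 and 1.98 CPM in Drakkar at 29 °C. *BnSESA1* (BnaC01g19300D), for a seed storage albumin, was at 0.568, 0.526 and 0.417 CPM in Drakkar at 21 °C and reached 1.24, 2.37 and 2.43 CPM at 29 °C, and in Duplo it went from 3.47, 2.25 and 2.003 to 9.75, 9.75 and 18.8 CPM. Every Duplo library exceeded every Drakkar library of the same temperature (log2 difference of 2.55, standard error 0.25, adjusted p = 1.31e-05, edgeR). *BnTTN8* was also higher in Duplo (log2 difference of 2.23, standard error 0.21, adjusted p = 7.33e-06, edgeR). The others higher in Duplo, named after their values were seen, were the A copy of the profilin gene *BnPRF1* (BnaAnng19920D), *BnGAD2* (BnaC04g12030D), for a glutamate decarboxylase, and *BnPAC2* (BnaC08g10150D). The C09 copy of *BnPRF1* among the 127 (BnaC09g33170D) was lower in Duplo and missed the limit on size (log2 difference of -0.61, standard error 0.12, adjusted p = 1.78e-03, edgeR).

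Among the genes higher in Drakkar, *BnPIP1C* differed most (log2 difference of -2.77, standard error 0.21, adjusted p = 1.44e-06, edgeR). BnaC03g62300D followed (log2 difference of -2.51, standard error 0.19, adjusted p = 1.55e-06, edgeR). Of the other annotated copies of *BnPIP1C*, BnaA03g27130D overlapped between the varieties at both temperatures. The copy BnaAnng23190D was at 29.4, 21.6 and 43.0 CPM in Drakkar and 0.189, 0.113 and 0.0710 CPM in Duplo at 29 °C. BnaC09g44570D, annotated as an elongation factor 1-beta 1 gene, was at 4.83, 2.83 and 4.92 CPM in Drakkar at 21 °C and reached 24.98, 17.65 and 23.7 CPM at 29 °C, and in Duplo it went from 0.711, 1.78 and 0.334 to 2.93, 4.26 and 6.22 CPM. All Drakkar libraries lay above the Duplo libraries of the same temperature (log2 difference of -2.19, standard error 0.33, adjusted p = 3.09e-04, edgeR). Also higher in Drakkar were *BnDFR*, *BnCSN6B* and BnaA01g13180D, whose fitted difference depends on Duplo libraries at the floor, and, named after their values were seen, *BnCYP71A28* (BnaC01g22310D), for a cytochrome P450, and BnaC01g02300D, BnaC08g32740D and BnaA03g18360D. The A01 copy of *BnBIA* had a small adjusted p and missed the limit on size (log2 difference of -0.87, standard error 0.13, adjusted p = 3.42e-04, edgeR). At 21 °C the libraries of the varieties did not overlap for 29 of the 127 genes higher in Duplo and 25 higher in Drakkar, where 18.1% and 19.2% of expressed genes did so, and at 29 °C for 12 and 38 of the 127, where 12.5% and 19.1% did so. Nothing is read from these counts. They rest on CPM without TMM factors, and a rule that favours close replicates also favours genes without overlap. The rule's gap within each variety favours genes with all 6 libraries at 29 °C above all 6 at 21 °C. Such were 2204 of the 4182 expressed genes without overlap of the temperatures in each variety (4.6% of all expressed genes). Among the 127 genes they numbered 109, from which nothing is read. For the other 18, among them *BnACO1*, *BnPIP1C*, *BnSESA1*, *BnTTN8*, *BnGSR2*, *BnLBD39* and the A07 copy of *BnERF73*, one variety at 21 °C reached the range of the other at 29 °C.

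**Figure D4:**
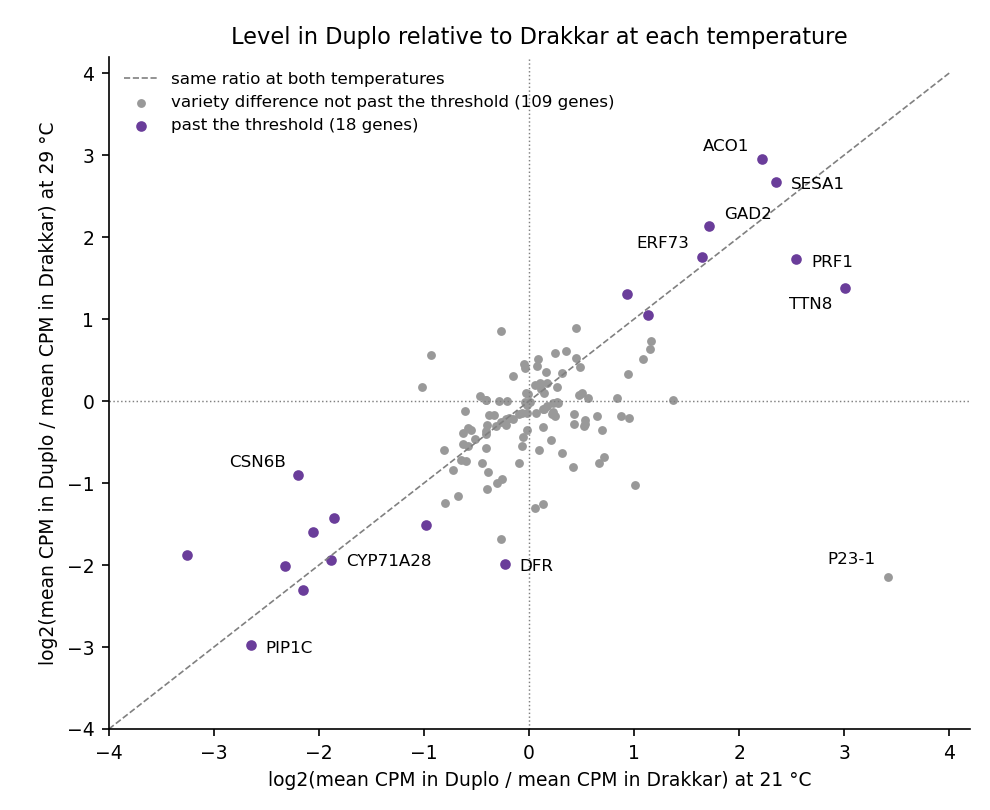
Log2 of the ratio of mean CPM in Duplo to mean CPM in Drakkar at 21 °C (horizontal) and 29 °C (vertical) for the 127 genes; each point is a gene, the dashed line marks the same ratio at both temperatures, and the 18 genes past the threshold of the variety difference are darker. Most genes lie near the centre, *BnACO1* and *BnSESA1* at the upper right, *BnPIP1C* at the lower left, and *BnP23-1* at the lower right, where its ratio at 21 °C is 10.7 with Duplo 21 °C replicate 2 and 0.573 without it.

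By their identifiers, 66 of the 127 genes lay on the A subgenome (52.0%, Wilson 95% interval 43.3% to 60.5%) and 61 on the C subgenome, beside 48.3% of expressed genes on A. The interval covers counting error and takes the genes as independent. The pair closest together was BnaA03g18340D, the lectin gene *BnEULS3*, and BnaA03g18360D, which has no annotation, at 2 steps apart. An Arabidopsis locus was given for 105 of the genes, which fell on 95 loci. Of these loci, 10 had 2 copies among the 127, of which 9 had an A and a C copy, as described for *BnDRG1*, *BnERF73*, *BnASY1*, *BnBIA*, *BnGGCT2;2* and *BnPMEI9*. The loci had 54 other annotated copies, of which 21 met the limits in Drakkar only, 10 in Duplo only and 1 in both, which was left out by name, beside 38.7% and 3.52% of all annotated genes in Drakkar only and in Duplo only. A copy of *BnGSR2* outside the 127 shows how copies of one locus differed. That copy, BnaCnng23850D, was at 26.3, 30.0 and 24.2 CPM in Drakkar at 21 °C and reached 12.9, 14.4 and 12.5 CPM at 29 °C, and in Duplo it went from 37.9, 69.1 and 77.4 to 147, 53.9 and 65.2 CPM. In Drakkar it was lower in every library at 29 °C than in every library at 21 °C, and in Duplo the temperatures overlapped.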

How the data were processed

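RNA of root tips was sequenced from 12 libraries, 3 for each combination of variety and temperature, and samples were grouped by their labels. Per the study's methods and the submitters' notes, HISAT2 was used by the authors for alignment to a *B. napus* genome, and the deposited tables, 1 per variety, hold unnormalized whole-number read counts of 101038 genes. The counting program, its use of strand and its treatment of reads that align to several genes are not given in the sources used here. Each table also holds 1 nameless line of 0 to 2 reads a library, at most 6.55e-06% of the total, which was dropped. The authors also deposited DESeq2 comparisons of the temperatures with fold changes and p-values, which were not used.

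CPM were computed from library totals without TMM factors. The precision that follows from 26554987 to 39934384 reads per library covers counting error only. The 127 genes, the gene lists and the rule for naming genes were chosen with earlier results of these data known. A floor of 3 reads per library was used where no library of a group exceeded it. Counts were filtered with filterByExpr, scaled with TMM factors (0.943 to 1.06 in the fits of single varieties) and tested with edgeR's quasi-likelihood test, with Benjamini-Hochberg adjustment over all genes tested. All 12 libraries entered the variety difference and the interaction, and each variety was fitted alone for temperature. Genes past an adjusted p of 0.05 and an absolute log2 change of 1, the study's threshold, were called. Where the sources do not tie replicates to separate growth runs, p-values measure only the spread between these libraries.

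The 48 genes named by rule were the 10 with the highest ratio of lowest 29 °C to highest 21 °C library, the 10 with the highest mean CPM at 29 °C, up to 4 per gene list, the 3 most different in each direction by variety and by interaction, the 3 on each side of the limit, and those with primers. Names and Arabidopsis loci came from parts of the study's supplementary tables, namely some of its gene clusters and its Drakkar comparison. These parts hold all except 19 of the 127 genes. No promoter sequence was used here.

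Counts were also simulated from the means and sizes of these libraries, with 200 changed genes. Their median absolute log2 change was about 3. For the variety difference edgeR recovered 200 with 0 false calls, and for the interaction 199 with 8 false calls. For temperature it recovered 200 with 14 false calls in Drakkar and 200 with 11 in Duplo. The genes taken by the rule had a smaller median fitted log2 rise, 1.41 in Drakkar and 1.41 in Duplo. The simulation therefore cannot show how well changes of that size are recovered, and nothing is read from it for these genes. The alternatives tried were DESeq2, other size factors, library totals, no filter on low counts, a minimum of 10 counts in all libraries, other limits of the rule, a block for the replicate number, and the removal of each library. Models were run in R 4.3.3 with edgeR 4.0.16, limma 3.58.1 and DESeq2 1.42.0, and tables and plots were made in Python 3.11.15 with pandas 2.3.3, numpy 2.4.6, matplotlib 3.10.9 and scipy 1.17.1.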

Additional observations from a re-analysis of the deposited data

How the results depend on the processing

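The number of genes follows the limits of the rule, with 541 at the lower fold limit tried, 35 at a fold limit of 2, 322 without a CPM minimum and 52 at a minimum of 5 CPM. Leaving out a library asks less of a gene by construction, and the number then lay between 135 and 236, with 236 without Duplo 21 °C replicate 2, 221 without Duplo 29 °C replicate 1, 198 without Drakkar 29 °C replicate 2 and 195 without Duplo 29 °C replicate 2. The variety difference called 14 to 20 of the 127 genes under all alternatives, 18 to 20 with a library left out and 18 with the replicate block, and among all genes 3373 with at least 10 counts in every library, where fewer genes were tested, and 7164 to 8393 with a library left out. For the interaction, 0 of the 127 genes were called under each alternative except without Duplo 21 °C replicate 2, where 1 was, so that the range was 0 to 1. Among all genes DESeq2 called 135, and 0 to 137 were called with a library left out, with 137 without Duplo 21 °C replicate 2 and 137 without Duplo 29 °C replicate 3. For temperature in Drakkar, 5 to 106 of the 127 genes were called with a library left out (22, 25 and 5 when replicates 1, 2 and 3 at 21 °C were removed in turn, and 44 and 35 when replicates 1 and 3 at 29 °C were), and among all genes 11 to 3173, the highest without 29 °C replicate 2. For temperature in Duplo, DESeq2 called 94 of the 127 and 929 of all genes, and with a library left out edgeR called 0 to 46 of the 127 and 0 to 396 of all genes, the highest without 29 °C replicate 3. Scaling by library totals moved the median log2 change of all genes in Drakkar from 0.01 to 0.13, and 112 of the 127 genes were then called in Drakkar. The cause of these changes was not tested. Of the 45 genes of the 127 named by rule, none changed the sign of a fitted temperature effect under the alternatives run. The gap that the rule required within each variety all but fixed that outcome, so it is no evidence of stability. Under at least 1 alternative, 8 changed the sign of the variety difference and 19 that of the interaction, and none of these exceeded a size of 1 on the log2 scale.

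The replicate numbers were not taken to pair libraries, since the correlations of same-numbered deviations lay between -0.18 and 0.13 within a variety and between -0.34 and 0.38 across varieties, and no pair of groups had all 3 above 0.1. With the replicate number as a block, 55 of the 127 genes and 545 of all genes were called for temperature in Drakkar and 0 of all genes in Duplo, and the counts for the variety difference and the interaction did not change. Counts of a few reads limit the folds of genes near the floor at 21 °C.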
